A study of Homo sapiens with 3 samples.

Results

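The NOTCH pathway genes described here are 38 receptors, ligands, cleavage enzymes, regulators and targets, listed by gene symbol. A member was read by the probe set whose only symbol in the platform annotation is that gene, and by the probe set with the highest mean where there were several. All 38 had a probe set, among 22395 named genes in all, and 36 of them had exactly 1. The cells were HEK293T, a cell line from human embryonic kidney transformed with adenovirus DNA and expressing SV40 large T antigen; 1 label spells it HEK239T. They were profiled as TRAF7 G536S cells, wild-type TRAF7 cells and empty vector cells, with 1 Affymetrix array each. All 3 cultures were infected with a pCDF1 lentivirus and selected in puromycin while proliferating, so the empty vector cells carry vector and selection too. Whether a culture was a clone or a pool is not given in the sources used here, and there are no replicates.

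NOTCH signalling passes between touching cells. A ligand of the Delta or Jagged family on one cell binds a NOTCH receptor on its neighbour, which is then cut by an ADAM protease and by gamma-secretase inside the membrane. The freed intracellular domain enters the nucleus, joins the DNA-binding protein RBPJ and a Mastermind coactivator, and switches on genes that include the HES and HEY repressors and the feedback inhibitor NRARP. In the embryonic kidney the pathway is known for patterning the nephron.

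Values are log2 intensities deposited after RMA, and a difference is the log2 value of one array minus another. With 1 array a group no p-value, SD or standard error exists, and differences between cultures, extractions and arrays cannot be told apart from those between constructs. In these bulk samples fewer cells expressing a gene and less of its RNA per cell cannot be told apart either. Levels of different genes come from different probes and were not compared. Below, a gene is counted where it was at least 1.5-fold apart, a difference of 0.58 on the log2 scale. The TRAF7 probe set (16815001) read 7.35 in G536S cells and 8.11 in wild-type cells, against 5.66 in empty vector cells. TRAF7 was thus 1.69-fold lower in G536S cells than in wild-type cells, a difference of -0.76. Mutation and TRAF7 level therefore cannot be told apart where the constructs are compared. Of 6 genes listed for HEK293T, NEFL read 5.62 in G536S cells, 6.27 in wild-type cells and 6.01 in empty vector cells, and PAX2, LHX1 and KRT18 lay from 1.18 to 1.82. KRT8 and NEFM read below the median of all gene means (1.21), so these markers known from the line were near background. The leukocyte marker PTPRC read 0.83, 0.84 and 0.95 in the same order, and the endothelial CDH5 0.91, 1.00 and 0.85, both under that median. Of all measured markers in the leukocyte, endothelial and fibroblast lists, 1 of 3, 0 of 3 and 1 of 4 reached it, CD68 and COL1A1 being the ones that did. The summed levels in G536S, wild-type and empty vector cells were 4.0, 4.20 and 4.23 for leukocytes, 2.66, 2.76 and 2.78 for endothelium, and 5.12, 5.32 and 5.40 for fibroblasts.

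Of the 4 members that differed at least 1.5-fold in some comparison, 3 were targets, and all 4 lay below the empty vector. The receptor NOTCH1 joined them under quantile normalization and cyclic loess, also lower with wild type, and HEYL dropped out under median centring. HEY2 was 1.93-fold lower in wild-type cells, NRARP 1.60-fold lower, and the fringe enzyme RFNG 1.53-fold lower. In G536S cells HEYL was 1.52-fold lower than in empty vector cells. No member was 1.5-fold higher in any comparison. In G536S cells 1 of 38 members was at least 1.5-fold lower and 0 were higher, where 1.07% of all named genes were lower and 3.05% higher. In wild-type cells 3 of 38 were lower and 0 higher, against 0.911% lower and 2.73% higher among all named genes. Between G536S and wild type, 0 of 38 were 1.5-fold apart, against 1.11% higher and 0.929% lower. The counted members lie among genes with a mean at or above 1.21, which 27 of the 38 members reached. Among the 11198 named genes at that level, 2.08% were lower and 6.07% higher in G536S cells than in empty vector cells. For wild type against empty vector those shares were 1.79% and 5.42%, and for G536S against wild type 1.81% lower and 2.17% higher. The shares varied with level. At means of 1.74 to 2.87, where RFNG and HEYL lie, 89 of 2799 genes were lower with wild type and 80 with G536S. With wild type, 65 of 2799 were lower at 2.87 to 4.62, where HEY2 lies, and 23 of 2800 above that, where NRARP lies. The median over all 38 members was 0.03 for G536S minus empty vector, -0.01 for wild type minus empty vector and 0.07 for G536S minus wild type, beside medians of all named genes of -0.0047, -0.00075 and -0.0033. The signs of the member medians against the empty vector depended on the scaling: under quantile normalization they were -0.05 and -0.10, and under median centring 0.06 and 0.02.

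**Figure D1:**
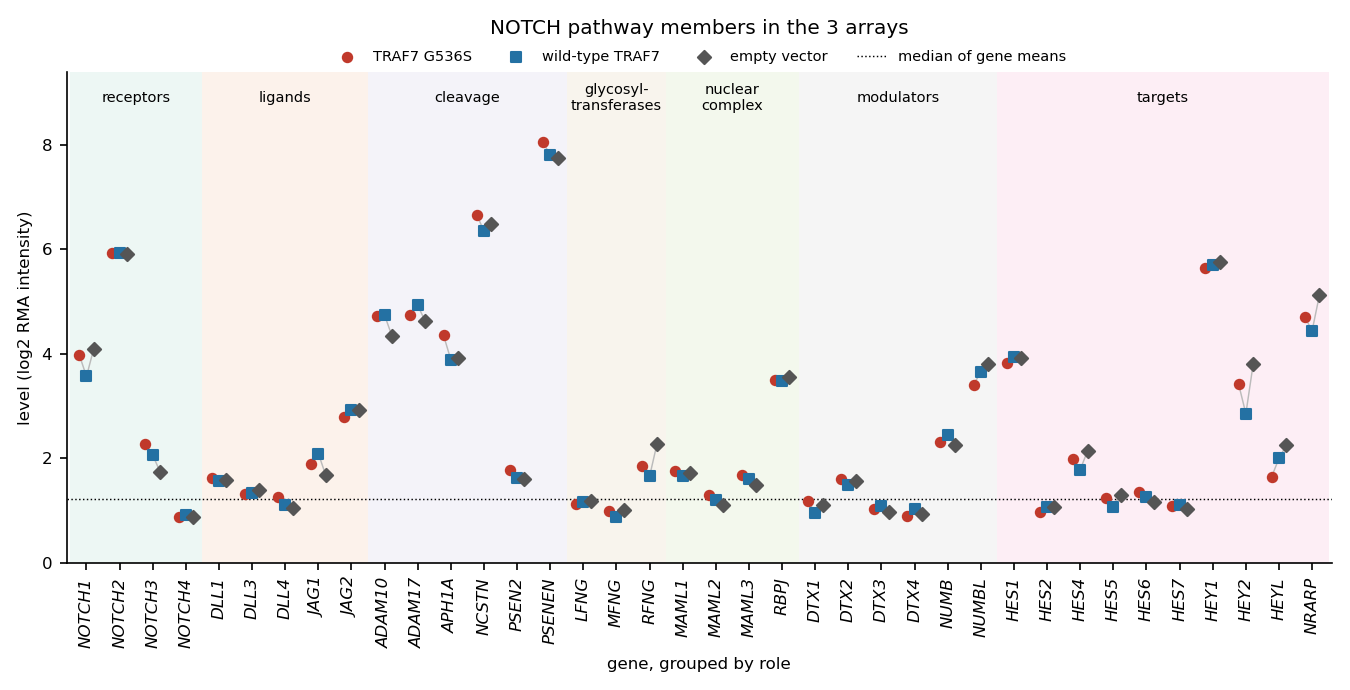
Level of each of the 38 members on the 3 arrays (vertical axis, log2 RMA intensity), grouped by role, with TRAF7 G536S as circles on the left, wild-type TRAF7 as squares and the empty vector as diamonds; each point is 1 array and there are no error bars. HEY2, NRARP and RFNG show the empty vector on top, and the 11 members under the dotted line (1.21, the median of gene means) have 3 close points each.

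Of the receptors, which carry the signal from the surface to the nucleus, 3 of 4 read above that median. NOTCH1 read 3.99 in G536S cells and 3.57 in wild-type cells, against 4.10 in empty vector cells. The wild-type array was the low one, by -0.53 from the empty vector and with G536S 0.42 above it. The first difference was -0.68 under quantile normalization and -0.65 under cyclic loess, past 1.5-fold in both. NOTCH2 read 5.93 in G536S cells, 5.94 in wild-type cells and 5.92 in empty vector cells, the closest 3 values of any receptor above the median. NOTCH3 read 2.28 in G536S cells and 2.06 in wild-type cells, against 1.74 in empty vector cells. Here the empty vector was the low array, by 0.53 from G536S and 0.32 from wild type, so NOTCH1 and NOTCH3 differed in opposite directions. The median receptor differed by 0.01 and 0.03 from the empty vector with G536S and wild type, and by -0.04 and -0.0040 under quantile normalization. These directions of NOTCH1 and NOTCH3 held under quantile normalization, median centring and cyclic loess. NOTCH4, known from endothelium, read 0.88, 0.91 and 0.88 in G536S, wild-type and empty vector cells. Its 6 probe sets differed by 0.01 to 0.02 for G536S and by 0.03 to 0.12 for wild type against the empty vector.

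Among the ligands, JAG1 had the widest range. It read 1.90 in G536S cells and 2.09 in wild-type cells, against 1.68 in empty vector cells, which is 0.41 higher with wild type. The related JAG2 read 2.80 in G536S cells, 2.93 in wild-type cells and 2.93 in empty vector cells. DLL1, a Delta-like ligand, read 1.63, 1.57 and 1.58 in the same order, and DLL3, known as an inhibitory ligand, 1.31, 1.34 and 1.40. DLL4, a ligand of blood vessel sprouting, read 1.27 in G536S cells, 1.11 in wild-type cells and 1.05 in empty vector cells. The median ligand differed by 0.05 for G536S and -0.0034 for wild type against the empty vector. Its sign turned to -0.05 for G536S under quantile normalization and -0.03 under cyclic loess, and to 0.02 for wild type under median centring.

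The cleavage machinery is 2 surface proteases, ADAM10 and ADAM17, and 4 subunits of gamma-secretase, of which PSEN2 holds a catalytic site and NCSTN, APH1A and PSENEN complete the complex. All 6 read higher in G536S cells than in empty vector cells, with a median of 0.24 and a range of 0.12 to 0.43. This was 5 of 6 under quantile normalization and cyclic loess, where the median was 0.09 and 0.13. Among all named genes passing the level of 1.21, 63.9% were above 0 in that comparison and the median was 0.10. With wild type 4 of 6 were above 0 and the median was 0.03, which turned to -0.06 under quantile normalization and -0.04 under cyclic loess. Among the named genes passing that level, 62.6% were above 0 with wild type and the median was 0.08. APH1A read 4.35 in G536S cells, against 3.89 in wild-type cells and 3.92 in empty vector cells. The G536S array stood alone as the high one, 0.47 above wild type. NCSTN read 6.67 in G536S cells, 6.35 in wild-type cells and 6.48 in empty vector cells, and PSENEN 8.05, 7.81 and 7.76. In both of these gamma-secretase subunits too G536S was the highest of the 3 arrays, by 0.32 and 0.24 over wild type. PSEN2 read 1.78 in G536S cells, 1.62 in wild-type cells and 1.61 in empty vector cells. Low to high, APH1A and NCSTN had the order wild type, empty vector, G536S, as did 13.5% of named genes at the level of 1.21. PSENEN and PSEN2 had the order empty vector, wild type, G536S, as did 26.5% of those genes.

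The surface proteases had another order. ADAM10, which makes the first cut after ligand binding, read 4.73 in G536S cells and 4.74 in wild-type cells, against 4.35 in empty vector cells. Both construct arrays were higher, by 0.38 and 0.39, and lay 0.01 from each other. ADAM17, better known for shedding TNF, read 4.75 in G536S cells and 4.93 in wild-type cells, against 4.63 in empty vector cells.

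The fringe glycosyltransferases add sugars to NOTCH that change which ligand it answers to. RFNG read 1.84 in G536S cells and 1.66 in wild-type cells, against 2.27 in empty vector cells. Both construct arrays were lower, by -0.42 and -0.61, and the wild-type difference stayed between -0.74 and -0.59 over the scalings. LFNG read 1.12, 1.16 and 1.18 and MFNG 0.99, 0.88 and 1.00 in G536S, wild-type and empty vector cells. Both read under the median gene, where differences are compressed.

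The nuclear complex had no member past 0.21 in either direction. RBPJ, the DNA-binding partner of NOTCH, read 3.49 in G536S cells, 3.49 in wild-type cells and 3.56 in empty vector cells. Of the Mastermind coactivators, MAML1 read 1.76, 1.66 and 1.71, MAML2 1.30, 1.20 and 1.11, and MAML3 1.68, 1.60 and 1.48 in the same order. A further probe set that the annotation gives to both MAML1 and LTC4S differed by -0.07 for G536S and 0.13 for wild type against the empty vector, the opposite signs to 0.04 and -0.05 on the MAML1 probe set. All 4 genes read higher in G536S than in wild-type cells, by 0.0039 (RBPJ) to 0.11 (MAML2), and 3 of 4 under cyclic loess. In that comparison 48.8% of all named genes were above 0, and 51.4% of those at or above the median of gene means. MAML2 read under that median, where differences are compressed, and RBPJ was nearly equal in the construct arrays.

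Of the modulators, NUMB and NUMBL are adaptors that restrain NOTCH, and the Deltex genes encode ubiquitin ligases that act on its trafficking. NUMBL read 3.41 in G536S cells and 3.65 in wild-type cells, against 3.80 in empty vector cells. G536S was the low array, at -0.39 from the empty vector. NUMB read 2.32 in G536S cells, 2.45 in wild-type cells and 2.26 in empty vector cells, and its second probe set, near background, gave -0.04 and -0.10 against the empty vector where the first gave 0.06 and 0.19. DTX1 read 1.17, 0.96 and 1.11, DTX2 1.60, 1.49 and 1.56, DTX3 1.02, 1.08 and 0.96, and DTX4 0.90, 1.03 and 0.93 in G536S, wild-type and empty vector cells. Of these Deltex genes, only DTX2 passed the level of 1.21. The median of the 6 modulators was 0.05 for G536S and 0.02 for wild type against the empty vector, and -0.02 and -0.04 under quantile normalization.

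**Figure D2:**
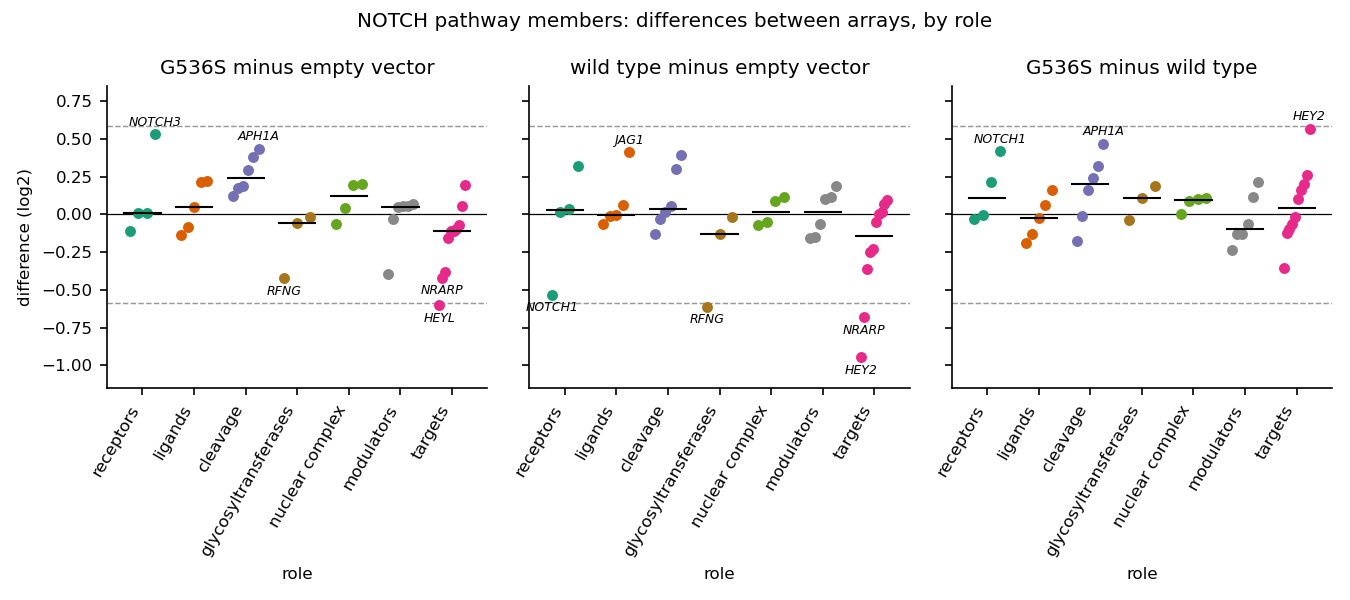
Difference of each member (vertical axis, log2) by role, in panels for G536S minus empty vector, wild type minus empty vector and G536S minus wild type; each point is a gene, the black bar is the median of its role and the dashed lines mark 1.5-fold. HEYL in the first panel and HEY2, NRARP and RFNG in the second lie below the lower line, and all 6 cleavage genes lie above 0 in the first.

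The genes listed as targets stand for the read-out of the pathway, and whether NOTCH drives each of them in these cells was not tested. HES and HEY proteins are basic helix-loop-helix repressors, and NRARP is a small ankyrin-repeat protein that is induced by NOTCH and limits it. Promoters of 32 members, 9 of them targets, matched the RefSeq table (GRCh38.p14), which spans 250 bases before and 50 after each gene's start. DLL1, DLL3, DTX1, DTX3, HEY1 and MFNG did not match. The core letters of the RBPJ motif, TGGGAA, or TTCCCA on the other strand, occurred in 5 of 9 target promoters (HES1, HES4, HES5, HEY2 and HEYL) and in 8 of 32 member promoters, and in 24.0% of all 35116 promoters of that length. The receptors' 4 promoters, the ligands' 3 and the nuclear complex's 4 held none. A match describes these letters and is not a binding site. Shown here, 5′ to 3′ with the core in capitals, are 250 bases before and 10 after the start of the 3 targets that were 1.5-fold lower in a construct array, and of HES1, the best-known target, which differed by 0.02 in wild-type cells. HEY2 lies at chr6:125749382-125749641 (plus strand), NRARP at chr9:137302262-137302521 (minus strand), HEYL at chr1:39639634-39639893 (minus strand) and HES1 at chr3:194135898-194136157 (plus strand).
HEY2: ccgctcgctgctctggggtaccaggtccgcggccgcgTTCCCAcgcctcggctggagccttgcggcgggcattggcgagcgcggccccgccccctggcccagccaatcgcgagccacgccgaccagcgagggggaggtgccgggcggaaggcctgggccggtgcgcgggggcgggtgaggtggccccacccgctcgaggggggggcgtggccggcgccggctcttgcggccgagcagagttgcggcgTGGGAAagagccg
NRARP: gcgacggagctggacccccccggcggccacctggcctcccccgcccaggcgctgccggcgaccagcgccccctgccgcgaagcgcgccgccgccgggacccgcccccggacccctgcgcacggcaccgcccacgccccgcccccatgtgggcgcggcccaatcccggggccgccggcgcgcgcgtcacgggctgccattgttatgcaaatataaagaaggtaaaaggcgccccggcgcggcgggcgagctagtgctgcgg
HEYL: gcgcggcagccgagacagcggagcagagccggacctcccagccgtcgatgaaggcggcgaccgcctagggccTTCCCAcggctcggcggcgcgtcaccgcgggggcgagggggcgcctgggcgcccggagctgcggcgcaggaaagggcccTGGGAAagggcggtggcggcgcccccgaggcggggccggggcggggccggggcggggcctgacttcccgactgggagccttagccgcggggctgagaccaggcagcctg
HES1: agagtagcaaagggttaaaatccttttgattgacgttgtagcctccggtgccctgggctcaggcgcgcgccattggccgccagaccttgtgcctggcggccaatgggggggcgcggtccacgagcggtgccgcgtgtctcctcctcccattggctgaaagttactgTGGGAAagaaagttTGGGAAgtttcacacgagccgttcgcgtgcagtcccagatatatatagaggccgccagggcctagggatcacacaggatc
HEY2, HEYL and HES1 each hold the core 2 times in this window, and 3.80% of all promoters hold it more than once. In HES1 both copies run in the direction of the gene and begin 84 and 70 bases before its start. In HEY2 one copy begins 213 bases before the start on the other strand, and the second begins 3 bases before the start and spans it. In HEYL they begin 178 and 99 bases before the start, the first on the other strand. NRARP holds none of these letters in this window.

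HEY2 read 3.42 in G536S cells and 2.85 in wild-type cells, against 3.80 in empty vector cells. The wild-type array was lowest, at -0.95 from the empty vector, and G536S lay between, at -0.38. Of the 11198 named genes passing the level of 1.21, 22 were as low or lower than HEY2 in wild type minus empty vector, which is 0.196% of them. Direct comparison put HEY2 0.57 higher in G536S cells than in wild-type cells without use of the empty vector, and 2.50% of the genes at that level were as high or higher. This was the widest difference of any member between the constructs.

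NRARP read 4.70 in G536S cells and 4.44 in wild-type cells, against 5.12 in empty vector cells. Its arrays had the order of HEY2, with differences of -0.42 and -0.68 from the empty vector and 0.26 between the constructs. At the level of 1.21, 0.982% of genes were as low or lower in wild-type cells, and 4.99% in G536S cells. HES4, which has no mouse counterpart in standard annotations, read 1.99 in G536S cells, 1.78 in wild-type cells and 2.14 in empty vector cells. HES5, a classical target in neural progenitors, read 1.23, 1.08 and 1.31 in the same order, close to background. HEY2, NRARP, HES4 and HES5, 4 of 10 targets, thus had the order wild type, G536S, empty vector from low to high. So did NOTCH1, RFNG, MFNG and RBPJ, 8 of 38 members (21.1%) in all, near the 17.2% of all named genes with that order. Among named genes at the level of 1.21, which HES5 and MFNG did not reach, the share was 11.4%. This order is the reverse of that of TRAF7 itself. As many members, 8 of 38 (21.1%), had TRAF7's own order of empty vector, G536S, wild type from low to high. Only 1 of these was a target. All named genes had TRAF7's order in 17.1%, and those at the level of 1.21 in 23.9%. A link to TRAF7 level was not tested.

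HEYL had a different order. It read 1.65 in G536S cells and 2.0 in wild-type cells, against 2.25 in empty vector cells. G536S was the low array, by -0.60 from the empty vector and -0.35 from wild type, and 1.92% of genes at the level of 1.21 were as low or lower in the first of these. Under median centring the first difference was -0.57, short of 1.5-fold.

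On the deposited scale none of the other targets lay further than 0.20 from the empty vector. HES6 was the furthest, above it by 0.20 with G536S and 0.09 with wild type. HES1, the most widely used NOTCH target, read 3.82 in G536S cells, 3.94 in wild-type cells and 3.93 in empty vector cells. HEY1, the nearest relative of HEY2, read 5.64, 5.70 and 5.75 in the same order. HEY1 too was below the empty vector, but by less than HEY2, at -0.05 with wild type and -0.11 with G536S. Over the scalings these HEY1 differences ran from -0.17 to -0.03 and from -0.26 to -0.08. HES6, known in mouse as an inhibitor of HES1, read 1.35 in G536S cells, 1.25 in wild-type cells and 1.16 in empty vector cells. HES2 read 0.98, 1.08 and 1.07 and HES7, an oscillator of somite formation, 1.09, 1.11 and 1.04 in G536S, wild-type and empty vector cells.

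Over the 10 targets, 8 were below 0 in G536S minus empty vector, with a median of -0.11. The count was 8 under each of the 3 other scalings, but the median was -0.26 under quantile normalization, -0.25 under cyclic loess and -0.08 under median centring. In wild type minus empty vector 6 were below 0, with a median of -0.14, and 7 under quantile normalization and cyclic loess. Among all named genes 51.2% were below 0 in the first comparison and 50.1% in the second, and among those at the level of 1.21, which 7 of the targets reached, 36.1% and 37.4%. Of those 7 targets, 6 were below 0 in the first comparison and 5 in the second, with medians of -0.16 and -0.25. In G536S minus wild type 5 targets were above 0 and 5 below, with a median of 0.04. The same empty vector array stands in both, so their common direction is not independent. That array also had lower high values: its 75th percentile over genes was 2.81, against 2.93 with G536S and 2.91 with wild type, and the median gene passing the level of 1.21 was 0.10 higher in G536S cells and 0.08 higher in wild-type cells than in empty vector cells. Quantile normalization moved the median of the genes passing that level to -0.03 for G536S and -0.02 for wild type, and HEY2 to -0.53 and -1.08.

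**Figure D3:**
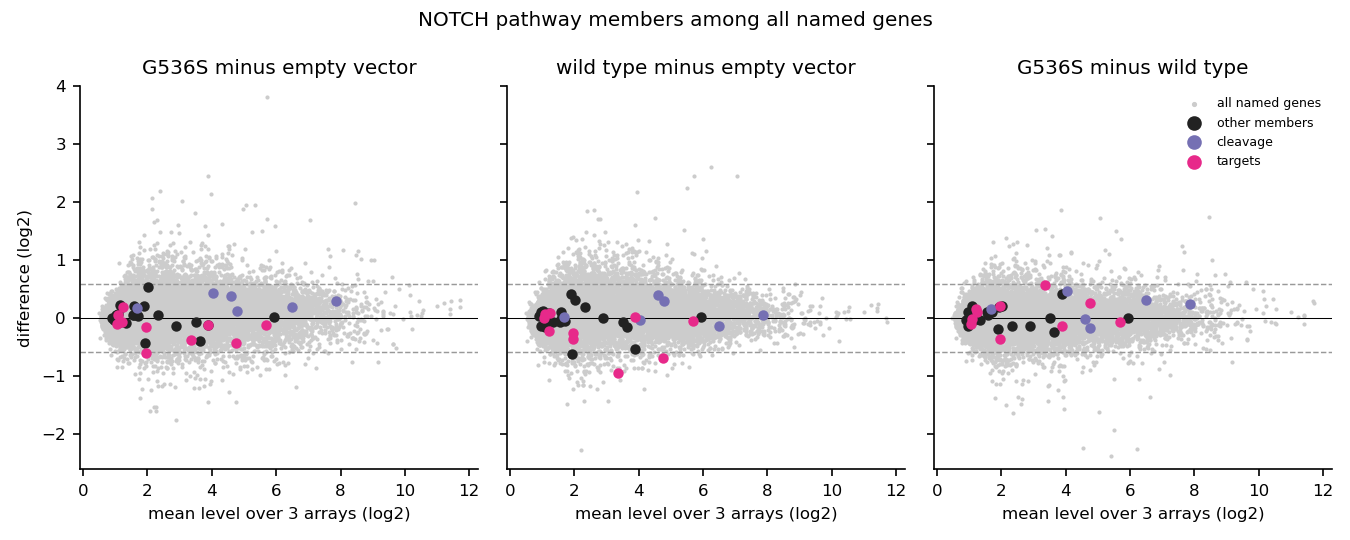
Difference (vertical axis, log2) against mean level over the 3 arrays (horizontal axis, log2) for all 22395 named genes in grey, targets, cleavage genes and other members in colour, in panels for G536S minus empty vector, wild type minus empty vector and G536S minus wild type; dashed lines mark 1.5-fold. In the middle panel HEY2, at a mean level of 3.36, is the lowest member, and most members lie within the grey band.

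Further pathway genes outside the members were read from a list of 34, of which 31 were measured. In G536S minus empty vector 0 were 1.5-fold higher and 1 lower, in wild type minus empty vector 3 higher and 0 lower, and in G536S minus wild type 0 either way. The shares of all named genes were those given above, 3.05% higher and 1.07% lower, 2.73% higher and 0.911% lower, and 1.11% higher and 0.929% lower. POGLUT1, which glucosylates NOTCH in the endoplasmic reticulum, read 2.25 in G536S cells and 2.65 in wild-type cells, against 1.79 in empty vector cells, so it was higher by 0.46 and 0.86, the second staying past 1.5-fold under all 3 other scalings. NEDD4, a ubiquitin ligase, read 1.84 in G536S cells and 2.33 in wild-type cells, against 1.69 in empty vector cells. Its wild-type difference was 0.64, and 0.52 under quantile normalization and 0.55 under cyclic loess, short of 1.5-fold. HDAC2, a histone deacetylase found in RBPJ corepressor complexes, read 4.31 in G536S cells and 4.32 in wild-type cells, against 3.73 in empty vector cells. Both construct arrays were higher for HDAC2, by 0.58 and 0.59, only the second of which reached 1.5-fold, and neither did under quantile normalization, at 0.42 and 0.46, or cyclic loess, at 0.45 and 0.48. MYC, a target of NOTCH in T cells, read 5.58 in G536S cells and 6.16 in wild-type cells, against 6.37 in empty vector cells. It was lower by -0.79 in G536S cells and by -0.21 in wild-type cells, and -0.58 in G536S minus wild type, just short of 1.5-fold, which it passed under quantile normalization (-0.64) and cyclic loess (-0.61). The median over the 31 genes was 0.0035, -0.06 and 0.08 in the 3 comparisons.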

How the data were processed

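RNA of 3 HEK293T cultures was measured on 1 Affymetrix array each. The deposited values are log2 intensities that the authors made with RMA, per the submitters' processing notes. Neither a version of RMA nor a build for the array is given there. Base 2 was inferred from the highest value, 12.6, which is too high for natural logs of a 16-bit scanner. The table holds 53617 probe sets, of which 23871 name 1 gene, 1842 several and 27904 none in the platform annotation. Symbols were updated through the Entrez ID in RefSeq (22569 matched), and the probe set with the highest mean was kept for each gene.

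Differences and counts used no test. All members, TRAF7, and other pathway genes at least 1.5-fold apart are named. Members and lists were chosen with earlier results of these data known. The alternatives were the mean of probe sets, quantile normalization, median centring, cyclic loess, filters at the median and 75th percentile (2.87) of gene means, and a floor at the 25th percentile (0.92). Counting was run on simulated data with an added shift larger than 1.5-fold. That checks the code and not the error between cultures or arrays. The number of arrays limits the precision. Tools were Python 3.11.15, numpy 2.4.6, pandas 2.3.3, matplotlib 3.10.9, R 4.3.3 and limma 3.58.1.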

Additional observations from a re-analysis of the deposited data

Results flagged for a closer look

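NCSTN, a subunit of gamma-secretase, was higher than the empty vector in G536S cells (0.19) and lower in wild-type cells (-0.13), which left it 0.32 higher in G536S than in wild type. On the deposited scale it is the only member that lay on opposite sides of the empty vector by at least 0.1 in both construct arrays. Under quantile normalization its G536S difference was 0.040, below that limit, while APH1A met it, at 0.29 with G536S and -0.15 with wild type. APH1A also met it under cyclic loess, at 0.30 and -0.15. With 1 array a group this difference was not tested.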

How the results depend on the processing

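The 4 members at least 1.5-fold apart kept their direction under every alternative that gave them a value, and so did the TRAF7 check. The count of members 1.5-fold lower with wild type was 4 under quantile normalization and cyclic loess, with NOTCH1 added, and 2 when only genes above the 75th percentile of means were kept, as RFNG was not. A single gene was taken as moved past 0.28, 0.27 and 0.23 (the robust spread over genes in the 3 comparisons), which no member and no TRAF7 value was, a median past 0.1, and a count past 1.5 times. Quantile normalization moved the G536S minus empty vector medians to -0.050 for ligands, 0.090 for cleavage, 0.015 for the nuclear complex, -0.26 for targets and -0.12 for the other pathway genes, and the wild type minus empty vector median to -0.10 for ligands. Cyclic loess moved the G536S minus empty vector medians to 0.13 for cleavage and -0.25 for targets. Under both, 1 other pathway gene was 1.5-fold higher with wild type and 1 lower in G536S minus wild type. Median centring left 0 members 1.5-fold lower with G536S, HEYL falling just short, and 1 other pathway gene higher.

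Filters left fewer members. At the median level, glycosyltransferases (RFNG alone) were at -0.42 with G536S and -0.61 with wild type, targets at -0.25 with wild type, and receptors at 0.21 in G536S minus wild type. At the 75th percentile the G536S minus empty vector medians were -0.088 for all members, -0.14 for ligands, -0.064 for the nuclear complex, -0.39 for modulators and -0.25 for targets. There 0 members were 1.5-fold lower with G536S, since HEYL did not pass. The wild type minus empty vector medians were -0.26 for receptors, -0.15 for modulators and -0.37 for targets, with 1 other pathway gene higher. In G536S minus wild type they were 0.21 for receptors, -0.13 for ligands and -0.24 for modulators. No glycosyltransferase passed that filter. All other counts and medians, and every value under the mean of probe sets and the floor, stayed within these limits. No paired analysis was possible because each group has 1 array. Members near background have compressed differences, so a small value there does not show equal levels.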

Other observations

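The Groucho corepressors, which HES and HEY proteins recruit, and HDAC1 were chosen for mention after their values were seen. The empty vector, 1 array shared by both comparisons, was the highest of the 3 in 36.8% of all named genes and in 23.9% of those at the level of 1.21. TLE1 read 5.26 in G536S cells and 5.16 in wild-type cells, against 5.60 in empty vector cells. TLE4 read 4.41 in G536S cells and 4.45 in wild-type cells, against 4.77 in empty vector cells, and TLE3 2.58, 2.72 and 2.84 in the same order. TLE2, near background, read 1.05, 1.25 and 1.13. HDAC1, a deacetylase of corepressor complexes, read 7.37 in G536S cells and 7.21 in wild-type cells, against 6.84 in empty vector cells. None of these was 1.5-fold apart.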
